A study of Mus musculus with 15 samples.

Results

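The genes described here are Chchd3, Chchd6, Immt, Apoo, Apool, Opa1, Samm50, Mtx1 and Mtx2, which encode proteins that shape the cristae of mitochondria. They are 9 of the 49315 genes in the deposited tables, and they were listed by family, with no threshold on their values. The family was selected on the counts of Chchd3, which were lower after Sirt1 knockdown, so every value of the siSirt1 against siCtrl comparison, beside the check of the targeted genes, is given here as a description and not as a test. All 9 were found by symbol and passed the filter on low counts in each comparison.

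Cristae are the folds of the inner mitochondrial membrane that carry the respiratory chain and ATP synthase. The mitochondrial contact site and cristae organizing system (MICOS) is a protein complex at the necks of these folds. Mitofilin, encoded by Immt, is its core, and Chchd3 and Chchd6 encode related coiled-coil-helix proteins that bind mitofilin on the side of the intermembrane space. Apoo and Apool encode related apolipoprotein O family subunits of the same complex, and Apool protein binds the lipid cardiolipin. Samm50, the core of the machinery that inserts barrel proteins into the outer membrane, and the metaxins Mtx1 and Mtx2 join MICOS to the outer membrane in a bridge across the intermembrane space. Opa1 encodes a dynamin-like GTPase that fuses inner membranes and keeps cristae necks tight. Differentiating muscle cells enlarge and remodel their mitochondria.

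Polyadenylated RNA was measured in primary myoblasts, the precursors of muscle fibres, of wild-type C57BL/6J mice. The cells received small interfering RNA (siRNA), carried by a lipid reagent, against Sirt1 (siSirt1), against Lmod1 (siLmod1) or as a control (siCtrl), and were differentiated for 1 day. Sirt1 encodes an NAD-dependent deacetylase and Lmod1 encodes leiomodin 1, which nucleates actin filaments. The study used 5 different primary lines, numbered 1, 2, 3, 4 and 7 in the labels, and each group held 5 libraries, 1 per line. The p-values thus hold for these 5 lines, each transfected once with each siRNA, and no library of the combined knockdown was analysed here.

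The libraries held 21004908 to 27815744 counted reads in siSirt1, 27135398 to 31829009 in siLmod1 and 26097889 to 33601761 in siCtrl. Each member had between 323 and 11104 reads in every library, so counting error was small beside the spread between lines. Sirt1 stood at 3.37 to 11.4 CPM (counts scaled to the library total) in siSirt1, against 16.5 to 34.2 CPM in siCtrl. Lmod1 stood at 1.39 to 5.28 CPM in siLmod1, against 5.77 to 41.0 CPM in siCtrl. Both differences in mean log2 CPM, -2.07 for Sirt1 and -2.94 for Lmod1, had an exact two-sided permutation p of 0.00794, the smallest that 5 against 5 libraries can give (0.0159 with Benjamini-Hochberg adjustment over 4 comparisons). Sirt1 stood at 27.1 to 52.4 CPM in siLmod1, a difference of 0.60 from siCtrl (exact permutation p = 0.0397, adjusted 0.0529), and Lmod1 at 3.67 to 31.4 CPM in siSirt1, a difference of -0.85 (exact permutation p = 0.278, adjusted 0.278). All 6 myoblast markers looked at, among them Myod1 and Myog, were above 1 CPM in every group, and their summed level was 4596 to 5949 CPM in siSirt1, 5360 to 6740 CPM in siLmod1 and 5499 to 7161 CPM in siCtrl. The 6 smooth muscle and pericyte markers summed to 101 to 271 CPM in siSirt1, 57.7 to 135 CPM in siLmod1 and 82.0 to 266 CPM in siCtrl, and the 6 fibroblast markers to 9.26 to 52.4, 4.20 to 24.1 and 4.85 to 31.5 CPM in the same order of groups, with Lum at 0 in siSirt1 and siLmod1. The Schwann, endothelial and immune markers summed to at most 24.2, 2.13 and 7.46 CPM in any library. The part of other cell types in the results below was not tested. The 3 libraries of line 4 stood apart on the first principal component, at 104 to 107 against -50.8 to 3.65 for the other 12, and the siSirt1 library of line 7 stood at 97.3 on the second. In bulk RNA, fewer cells of a type and less RNA per cell cannot be told apart.

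Chchd3 (mm10 chromosome 6, 32790976 to 33060260, minus strand) had the widest difference between groups of the 9 genes, relative to its level. Its level was 71.6, 91.5, 80.9, 53.3 and 74.2 TPM (the authors' unit, scaled by length within a library) in siSirt1 of lines 1, 2, 3, 4 and 7. It was 186, 186, 191, 165 and 160 TPM in siLmod1 and 146, 147, 175, 134 and 147 TPM in siCtrl of the same lines. Every siSirt1 library lay below every library of the other groups, and siLmod1 was above siCtrl in each line although their ranges overlapped. The siSirt1 mean was 74.3 ± 14.1 TPM, against 150 ± 14.9 TPM in siCtrl (SD, n = 5 each), that is 49.6% of the siCtrl mean, and the fitted log2 fold change was -1.14 ± 0.15 (SE). Line 2 had the smallest difference between siSirt1 and siCtrl, at -0.68 on the log2 TPM scale, and line 4 the widest, at -1.33.

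**Figure D1:**
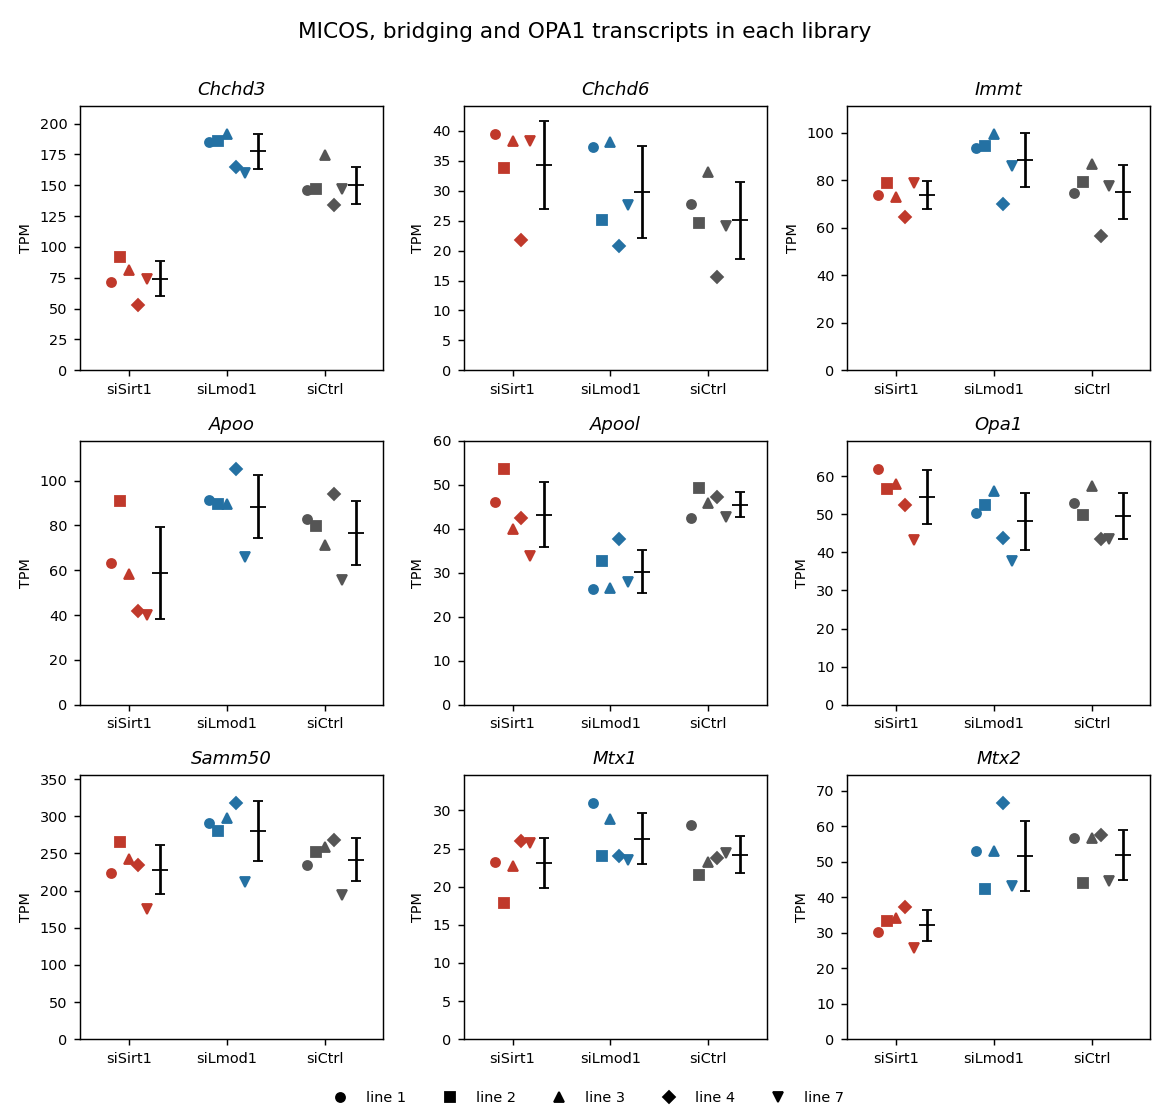
TPM of each of the 9 genes in the 15 libraries, with siSirt1, siLmod1 and siCtrl on the x axis of each panel, 1 marker shape per line, and a bar for the mean ± SD (n = 5). The siSirt1 libraries of Chchd3 (53.3 to 91.5 TPM) and Mtx2 (25.6 to 37.1 TPM) lie below all others, and the siLmod1 libraries of Apool (26.3 to 37.7 TPM) lie below those of siCtrl.

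Mtx2 (chromosome 2, 74825803 to 74878431, plus strand), the metaxin that partners Mtx1 at the outer membrane, was the other gene whose siSirt1 and siCtrl ranges did not overlap. It stood at 30.2, 33.3, 34.1, 37.1 and 25.6 TPM in siSirt1 of lines 1, 2, 3, 4 and 7, at 52.9, 42.3, 53.1, 66.4 and 43.1 TPM in siLmod1 and at 56.6, 44.0, 56.5, 57.6 and 44.6 TPM in siCtrl. All siSirt1 libraries were low, while siLmod1 and siCtrl covered the same range. Its siSirt1 mean was 32.1 ± 4.37 TPM, against 51.9 ± 6.93 TPM in siCtrl (SD, n = 5 each), 61.8% of the siCtrl mean, and the fitted log2 fold change was -0.83 ± 0.15 (SE).

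The promoters of these 2 genes share a short motif, and the stretches around it are shown because Chchd3 and Mtx2 had the lowest siSirt1 levels relative to siCtrl. The motif searched was CCGGAAG, a core bound by ETS family factors, on both strands of 32851 RefSeq windows that run from 250 bases before to 50 bases after a gene's start. It occurs in 8.86% of all windows and in those of 4 of the 9 genes, namely Chchd3, Mtx2, Immt and Mtx1. The fitted log2 fold changes of Immt and Mtx1 in siSirt1 against siCtrl were -0.15 and -0.21. A link between the motif and the levels was not tested. RefSeq's start of Mtx1 lies inside the span of 89209081 to 89227088 given for this gene below, and not at 89227088. The sequences below are RefSeq's for GRCm38.p6, read 5′ to 3′ on the gene's own strand, with the motif or its reverse complement in capitals.
Chchd3, chr6:33060372-33060401, minus strand: tctcagaggctCCGGAAGccctattaagca
Mtx2, chr2:74825776-74825805, plus strand: gggcggagcagCCGGAAGtgccggcgcgcg
Mtx2, chr2:74825807-74825836, plus strand: tgtcagcgacgCCGGAAGtgcttggtcggc
Immt, chr6:71831190-71831219, plus strand: ccaagcgcgacCCGGAAGgagaacctgccc
Immt, chr6:71831336-71831365, plus strand: tgccggtggccCTTCCGGtgcgccggacgc
Mtx1, chr3:89213899-89213928, minus strand: acgagaaggtgCTTCCGGgtcagagagcgt

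Other motifs were rarer among the 9 genes. The nuclear respiratory factor motif GCGCATGC, in 2.71% of all windows, occurs in the window of Opa1, and the YY1 motif, in 0.633% of all windows, in that of Mtx1. The myogenic E-box CAGCTG, in 16.3% of all windows, occurs in a window of Apoo, and neither the cyclic AMP motif TGACGTCA (1.79%) nor the oestrogen-related receptor motif TCAAGGTCA (0.423%) occurs in any of the 9. These matches describe letters in a window, and binding was not measured.

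Chchd6 (chromosome 6, 89383146 to 89595652, minus strand), the paralogue of Chchd3, was on the other side of siCtrl. It had 39.4, 33.8, 38.3, 21.8 and 38.4 TPM in siSirt1 of lines 1, 2, 3, 4 and 7, 37.3, 25.1, 38.2, 20.7 and 27.7 TPM in siLmod1 and 27.8, 24.6, 33.2, 15.5 and 24.1 TPM in siCtrl. The group ranges overlapped because line 4 was low in all 3 groups, but within each line siSirt1 was above siCtrl, by 0.20 to 0.67 on the log2 TPM scale. The siSirt1 mean was 34.3 ± 7.32 TPM, against 25.1 ± 6.42 TPM in siCtrl (SD, n = 5 each), with a fitted log2 fold change of 0.33 ± 0.20 (SE).

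Chchd3 is the more abundant of the 2 paralogues, and their sum was lower in siSirt1. They summed to 75.1 to 125 TPM in siSirt1, 185 to 230 TPM in siLmod1 and 150 to 208 TPM in siCtrl. Chchd6 made up 26.9% to 35.5% of the sum in siSirt1, 11.2% to 16.7% in siLmod1 and 10.4% to 16.0% in siCtrl. The siSirt1 shares lay above all others, and the shares of siLmod1 and siCtrl covered nearly the same range. The ratio of Chchd3 to Immt TPM was likewise 0.823 to 1.16 in siSirt1, 1.86 to 2.35 in siLmod1 and 1.86 to 2.37 in siCtrl. These ratios contain the value of Chchd3 that chose the family and are not tested.

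**Figure D2:**
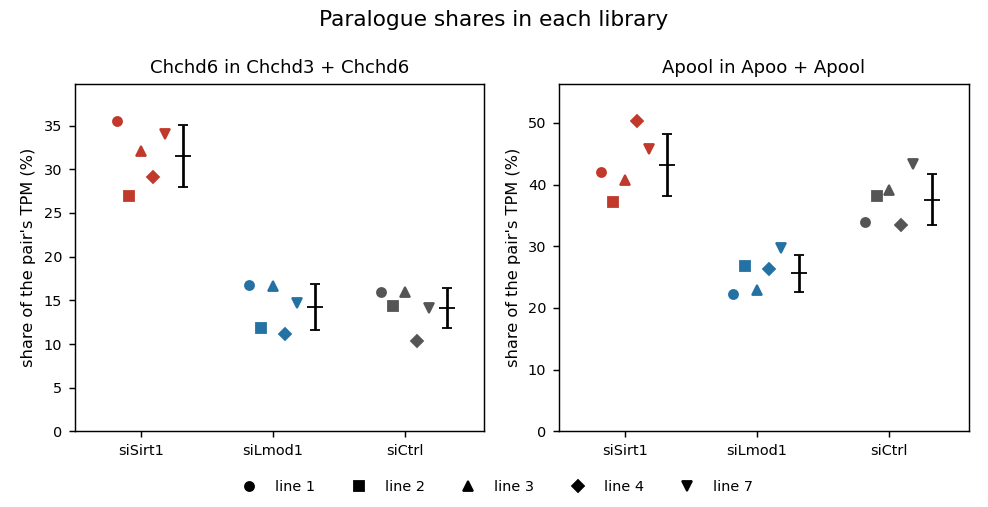
Share of Chchd6 in the summed TPM of Chchd3 and Chchd6 (left) and of Apool in that of Apoo and Apool (right), in percent, for siSirt1, siLmod1 and siCtrl, with 1 marker shape per line and a bar for the mean ± SD (n = 5). Chchd6 takes 31.5 ± 3.53% in siSirt1, 14.2 ± 2.61% in siLmod1 and 14.1 ± 2.28% in siCtrl, and Apool takes 43.2 ± 5.04%, 25.6 ± 3.05% and 37.6 ± 4.11% in these groups.

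Immt (chromosome 6, 71831331 to 71877388, plus strand), the core subunit, had 74.0, 78.8, 73.0, 64.7 and 79.0 TPM in siSirt1 of lines 1, 2, 3, 4 and 7. The values were 93.5, 94.4, 99.4, 70.1 and 85.9 TPM in siLmod1 and 74.7, 79.2, 87.1, 56.7 and 77.7 TPM in siCtrl. The siSirt1 and siCtrl ranges overlapped widely, and siLmod1 was the highest group in every line. The fitted log2 fold change of siSirt1 against siCtrl was -0.15 ± 0.12 (SE).

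Apoo (X chromosome, 94367117 to 94417093, plus strand) varied more between lines in siSirt1, relative to its mean, than any other member there. It had 63.4, 90.9, 58.2, 42.0 and 40.0 TPM in siSirt1 of lines 1, 2, 3, 4 and 7, 91.5, 89.7, 89.6, 105 and 65.9 TPM in siLmod1, and 83.0, 79.9, 71.4, 94.0 and 55.8 TPM in siCtrl. Line 2 alone was higher in siSirt1 than in siCtrl, by 0.19 on the log2 TPM scale, and line 4 was lower by the widest margin, at -1.16. The mean was 58.9 ± 20.5 TPM in siSirt1 and 76.8 ± 14.3 TPM in siCtrl (SD, n = 5 each), and the fitted log2 fold change was -0.51 ± 0.27 (SE). A pseudogene, Apoo-ps, matches 586 of the 1218 bases of the Apoo transcript without a mismatch, and it held 1 to 20 reads per library. How reads that match both were counted is not given, so the effect on the level of Apoo is not known.

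The remaining members were close to siCtrl in siSirt1. Opa1 (chromosome 16, 29579334 to 29654884, plus strand) had 43.3 to 61.9 TPM in siSirt1, 37.6 to 56.2 TPM in siLmod1 and 43.5 to 57.4 TPM in siCtrl, with a fitted log2 fold change of 0.01 ± 0.12 (SE) in siSirt1 against siCtrl. Samm50 (chromosome 15, 84192241 to 84217267, plus strand) had 176 to 265 TPM in siSirt1, 212 to 317 TPM in siLmod1 and 194 to 269 TPM in siCtrl, with a fitted value of -0.21 ± 0.16 (SE). Mtx1 (chromosome 3, 89209081 to 89227088, minus strand) had 17.9 to 26.0 TPM in siSirt1, 23.5 to 30.9 TPM in siLmod1 and 21.5 to 28.1 TPM in siCtrl, with a fitted value of -0.21 ± 0.12 (SE). In all 3 genes the ranges of the groups overlapped. The library kit keeps no strand, and 21.2% of the exon bases of Mtx1 overlap those of Gm43737 on the opposite strand, which held 183 to 485 reads per library, so reads of Mtx1 and Gm43737 cannot be told apart there.

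Over the 9 genes, the median log2 fold change of siSirt1 against siCtrl was -0.21, beside 0.02 over all 14912 genes tested. The ranges of the groups did not overlap for 2 of the 9, both lower, and for 3.23% of all genes tested (0.852% lower). With edgeR's quasi-likelihood test and Benjamini-Hochberg adjustment at 0.05, 1 of the 9 was called without the line in the model, beside 0.127% of all genes, and 2 of the 9 with the line as a block, beside 7.07% of all genes (4.35% lower). These counts hold the contrast that chose the family, and nothing is read from them. Scaling by library totals alone moved the median of all genes to 0.13 and that of the members to -0.10, so the TPM differences of the siSirt1 libraries sit somewhat higher than the fitted ones.

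The siLmod1 against siCtrl comparison was not the one used to choose the genes, and its values were tested. It shares the siCtrl libraries with that one, so the p-values of Chchd3 here are not independent of the choice. Apool (X chromosome, 112311334 to 112372755, plus strand), the cardiolipin-binding subunit, was the one member that was lower in every siLmod1 library than in every siCtrl library. It had 46.1, 53.6, 40.0, 42.5 and 33.7 TPM in siSirt1 of lines 1, 2, 3, 4 and 7, 26.3, 32.8, 26.6, 37.7 and 27.9 TPM in siLmod1 and 42.5, 49.3, 45.9, 47.1 and 42.7 TPM in siCtrl. Only siLmod1 was low, and siSirt1 overlapped both other groups. The siLmod1 mean was 30.2 ± 4.89 TPM, against 45.5 ± 2.92 TPM in siCtrl (SD, n = 5 each), 66.5% of the siCtrl mean. The TPM ranges of siLmod1 and siCtrl did not overlap for 2.58% of the 15022 genes tested, and for 0.952% with siLmod1 lower.

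The fitted log2 fold change of Apool was -0.63 ± 0.14 (SE) and missed the threshold when the model held the group alone (edgeR quasi-likelihood test, Benjamini-Hochberg adjusted p = 0.131). In the blocked fit it was -0.64 ± 0.06 and passed (adjusted p = 8.37e-05), and DESeq2 without the block also called it (adjusted p = 0.0139). The lines pair the libraries across groups, as libraries of the same line deviated together (correlations of 0.278 to 0.889), so both fits are given. Line 4, whose libraries stood apart, had the smallest difference at -0.32 on the log2 TPM scale. Without line 4 the blocked value was -0.69 ± 0.06 (adjusted p = 3.09e-05).

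Chchd3, Immt and Samm50 were higher in siLmod1 than in siCtrl in all 5 lines. Each was called in the blocked fit and not in the fit with the group alone, although the fitted changes were nearly equal. For Chchd3 the mean was 178 ± 14.1 TPM in siLmod1 and 150 ± 14.9 TPM in siCtrl (SD, n = 5 each), with a log2 fold change of 0.20 ± 0.05 (SE) with the block (adjusted p = 0.0108; 0.429 without). For Immt it was 88.7 ± 11.5 TPM in siLmod1 and 75.1 ± 11.3 TPM in siCtrl, with 0.20 ± 0.05 with the block (adjusted p = 0.00886; 0.69 without). For Samm50 it was 280 ± 40.2 TPM in siLmod1 and 242 ± 29.1 TPM in siCtrl, with 0.16 ± 0.05 with the block (adjusted p = 0.0275; 0.819 without). For Immt and Samm50 the difference between the means was close to 1 SD of the lines, while the within-line differences on the log2 TPM scale had SDs of 0.08 and 0.07. Without line 1 the blocked fit kept Apool and Immt alone, and without line 3 or line 7 it no longer called Samm50. A blocked fit of all 15 libraries ended the calls of Chchd3 (adjusted p = 0.209) and Samm50 (0.182) and left Immt at 0.0497.

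Chchd6 and Apoo were also higher in siLmod1 in all 5 lines, at 0.21 ± 0.08 and 0.16 ± 0.06 on the log2 scale with the block (SE), and missed the threshold in both fits (adjusted p = 0.0634 and 0.0666 with the block). Without line 2 the blocked fit called Chchd6 (adjusted p = 0.024). Opa1, Mtx1 and Mtx2 had blocked values of -0.09 ± 0.05, 0.07 ± 0.07 and -0.06 ± 0.05, with no shared direction over the lines. The difference of Mtx2 was near 0 and took either sign with the scaling.

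In all, edgeR with the group alone called 0 of the 9 genes in siLmod1 against siCtrl, beside 0.113% of all genes tested. Of the 9, Chchd3 and Apool had an unadjusted p below 0.05, and DESeq2 called 1, which was Apool. With the block, edgeR called 4 of the 9, of which 3 were higher and 1 lower, beside 29.5% of all genes (12.9% higher and 16.5% lower). The median log2 fold change of the members was 0.15, beside -0.01 over all genes. A share of 4 in 9 is not far from the background of the blocked fit, and it is not read as particular to these genes.

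**Figure D3:**
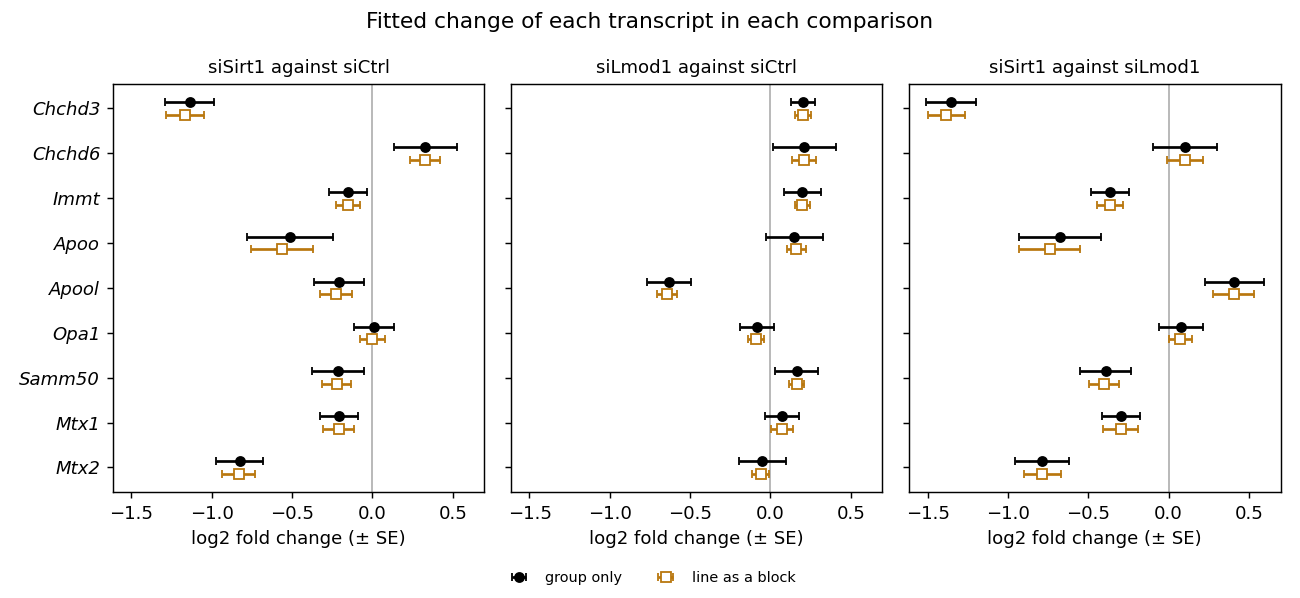
Fitted log2 fold change (± SE) of each of the 9 genes for siSirt1 against siCtrl, siLmod1 against siCtrl and siSirt1 against siLmod1, from the fit with the group only (filled circles) and with the line as a block (open squares). The values of both fits nearly coincide, the blocked bars are shorter in every row, and Apool at -0.63 is the one member far below 0 in siLmod1.

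Within the Apoo and Apool pair, the 2 knockdowns had different shares. Apool made up 37.1% to 50.3% of the pair's TPM in siSirt1, 22.3% to 29.7% in siLmod1 and 33.4% to 43.4% in siCtrl, and the siLmod1 shares lay below all others. The summed TPM of the pair differed less, at 102 ± 27.3 in siSirt1, 119 ± 17.5 in siLmod1 and 122 ± 15.8 in siCtrl (SD, n = 5 each).

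siSirt1 was then set against siLmod1, which asks whether the 2 knockdowns differ. This comparison shares the siSirt1 libraries with the one that chose the family, so Chchd3 is again a description, at -1.35 ± 0.16 (SE) on the log2 scale, and the other 8 genes were tested. Mtx2 fell to 32.1 ± 4.37 TPM in siSirt1, against 51.6 ± 9.79 TPM in siLmod1 (SD, n = 5 each). Its log2 fold change was -0.79 ± 0.17 (SE) with the group alone (edgeR, Benjamini-Hochberg adjusted p = 0.0492). In the blocked fit it was -0.79 ± 0.12 (adjusted p = 0.00585). It was lower in 5 of 5 lines with no overlap of the groups, which held for 5.61% of the 14998 genes tested, and for 1.88% with siSirt1 lower. The call with the group alone was lost on leaving out any 1 of the 10 libraries (adjusted p of 0.0565 to 0.139), with library totals alone (0.0667) and without the filter on low counts (0.0866).

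Immt, Apoo and Samm50 were called lower in siSirt1 than in siLmod1 with the block only. Immt was at -0.36 ± 0.08 (SE; edgeR adjusted p = 0.0216; 0.152 without the block), lower in 5 of 5 lines. Samm50 was at -0.40 ± 0.10 (adjusted p = 0.0274; 0.257 without), also lower in 5 of 5 lines. Apoo was at -0.74 ± 0.19 (adjusted p = 0.0353; 0.219 without), lower in 4 of 5 lines. These 3 calls rest on single lines, since the blocked fit called Chchd3 and Mtx2 alone without line 1 and without line 3, and it no longer called Apoo and Samm50 without line 4 or line 7. The siSirt1 library of line 1 was also the one with the weakest tie to its line, with a correlation as low as 0.278. It correlated with the siCtrl library of line 3 at 0.269, so its pairing is uncertain.

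Apool was at 0.40 ± 0.13 (SE), higher in siSirt1 in 5 of 5 lines, and missed the threshold in both fits (edgeR adjusted p = 0.0695 with the block and 0.295 without). The blocked fit without line 4 (0.0466) and that of all 15 libraries (0.011) called it. Chchd6 at 0.10 ± 0.11, Opa1 at 0.07 ± 0.07 and Mtx1 at -0.30 ± 0.11 in the blocked fit also missed the threshold. The blocked fit of all 15 libraries called Mtx1 (edgeR adjusted p = 0.0324). With the group alone edgeR called 2 of the 9, beside 1.53% of all genes, and with the block 5 of the 9, all lower, beside 15.9% of all genes (8.43% lower). The median of the members was -0.36, beside 0.02 over all genes. Both counts and the median include Chchd3, whose siSirt1 values chose the family, and nothing is read from them.

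The order of the levels was read from TPM, which is per length. In siCtrl, Samm50 stood first at 242 ± 29.1 TPM and Chchd3 next at 150 ± 14.9 TPM, and their ranges did not overlap with each other or with the next gene. Apoo (76.8 ± 14.3), Immt (75.1 ± 11.3), Mtx2 (51.9 ± 6.93), Opa1 (49.5 ± 6.01) and Apool (45.5 ± 2.92 TPM) followed, each overlapping its neighbours in the order. Chchd6 (25.1 ± 6.42) and Mtx1 (24.2 ± 2.45 TPM; SD, n = 5 each) were the lowest, overlapped each other and lay below Apool. In siSirt1, Chchd3 at 74.3 ± 14.1 TPM overlapped Immt at 73.9 ± 5.82 TPM, and in siLmod1 Apool at 30.2 ± 4.89 TPM overlapped Chchd6 at 29.8 ± 7.69 TPM. The place of Samm50 depends on the length used. The length behind the authors' TPM equals the union of its annotated exons for 8 of the 9 genes, while for Samm50 it is 1673 bases against a union of 6556 bases. Per kilobase of union exons Chchd3 stood first and Samm50 in place 4. The 9 genes summed to 623 ± 71.7 TPM in siSirt1, 820 ± 78.8 TPM in siLmod1 and 740 ± 54.9 TPM in siCtrl.

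The genes whose log2 CPM was most like that of Chchd3 over the 15 libraries, after each line's mean was removed, were Ogn, Atad3a, Mrpl38, Adsl and Nexn, with Pearson correlations of 0.989, 0.987, 0.986, 0.986 and 0.983 among 10308 genes. Atad3a encodes an inner membrane ATPase of mitochondria, and Mrpl38 a mitochondrial ribosomal protein. Atad3a stood at 45.9 ± 7.75 CPM in siSirt1, 79.7 ± 15.2 CPM in siLmod1 and 69.4 ± 12.1 CPM in siCtrl, and Mrpl38 at 35.9 ± 4.82, 60.4 ± 11.9 and 55.4 ± 6.51 CPM in these groups (SD, n = 5 each). In the same order, Ogn stood at 73.4 ± 26.3, 339 ± 98.2 and 240 ± 47.7 CPM. Adsl stood at 53.6 ± 9.84, 74.8 ± 13.3 and 70.8 ± 9.08 CPM, and Nexn at 207 ± 80.9, 342 ± 87.4 and 331 ± 90.7 CPM. A shared function of these genes was not tested. Among the members, Mtx2 was the most like Chchd3, at 0.957, followed by Apoo at 0.869, Samm50 at 0.841, Immt at 0.639 and Mtx1 at 0.512. Apool at -0.427, Chchd6 at -0.558 and Opa1 at -0.819 ran against it. Mtx2, Apoo and Samm50 ranked 47, 381 and 526 among the 10308 genes, so many genes outside the family were closer to Chchd3. The siSirt1 values of Chchd3 that chose the family are part of this pattern. The libraries share groups and depth, so these values describe the pattern and carry no p.

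Other mitochondrial genes were read as 9 lists of 99 tested genes in all. In siLmod1 against siCtrl 73 of the 99 had a log2 fold change above 0, where the median over all genes tested was -0.01. No gene of the lists was called by edgeR with the group alone, and 29 were higher and 5 lower with the block, against the background of 12.9% and 16.5% of all genes. Of the 6 other MICOS and bridging subunits 1 rose, the MICOS subunit listed as 2410015M20Rik (Micos13), at 0.19 ± 0.05 (SE; adjusted p = 0.0225 with the block). Of the 10 OPA1-processing and scaffold genes 2 rose, Letm1, an inner membrane ion exchanger, at 0.34 ± 0.05 (0.000494) and Chchd10, an intermembrane space protein, at 0.73 ± 0.10 (0.000588). Chchd10 varied widely between lines, at 49.8 ± 42.4 CPM in siLmod1 and 30.6 ± 28.6 CPM in siCtrl (SD, n = 5 each).

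ATP synthase, whose dimers line the cristae ridges, had 8 of 16 listed genes, Atpif1 included in the list, higher and 1 lower with the block. In that fit 12.9% of all genes tested were called higher and 16.5% lower. Atp5l rose by 0.27 ± 0.05 (adjusted p = 0.00348) and Atp5f1 by 0.22 ± 0.05 (0.00866), while Atp5d was at -0.33 ± 0.06 (0.00213). Of 10 fusion and fission genes 5 rose and 1 fell with the block. Mtfp1, an inner membrane fission protein, was at 0.92 ± 0.13 (0.000836) and the outer membrane fusion GTPase Mfn2 at 0.29 ± 0.05 (0.00234), while Mief1, an adaptor for the fission GTPase, was at -0.38 ± 0.06 (0.000893). In these 2 lists the called members were mostly higher and the medians, 0.16 and 0.18 with the group alone, lay near that of the 9 genes at 0.15.

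Of 10 cardiolipin genes the phospholipase Pnpla8 rose by 0.40 ± 0.05 (adjusted p = 0.000416 with the block) and the lipid carrier Prelid3b fell, at -0.28 ± 0.05 (0.00209). Of 10 outer membrane import and channel genes Tomm7 rose by 0.19 ± 0.06 (0.0382) and the import receptor Tomm70a fell, at -0.17 ± 0.05 (0.0346). Of 12 genes for the import of twin-cysteine proteins, the route that Chchd3 and Chchd6 proteins take, 4 rose, among them Cox17 at 0.34 ± 0.06 (0.00207) and Timm10 at 0.32 ± 0.06 (0.00324), and Gfer fell, at -0.26 ± 0.06 (0.0111). Of 12 mitochondrial content and matrix markers 5 rose, among them Hspd1 at 0.21 ± 0.05 (0.0126) and Hspa9 at 0.17 ± 0.05 (0.0184). Of the 13 mitochondrially encoded transcripts mt-Co1 at 0.25 ± 0.07 (0.0195) and mt-Nd4 at 0.23 ± 0.07 (0.0263) rose, and the whole class took 1.93% to 2.91% of counts in siSirt1, 2.40% to 3.30% in siLmod1 and 1.92% to 2.73% in siCtrl. With the group alone, 11 of the 12 content markers and 12 of the 13 mitochondrially encoded transcripts were above 0 in siLmod1 against siCtrl. The medians of these lists were 0.14 and 0.21, beside -0.01 over all genes, but none of their genes was called in that fit. In siCtrl mt-Co2, mt-Co3, mt-Atp6, mt-Atp8, mt-Nd4l and mt-Nd3 averaged only 0.541 to 6.17 CPM, against 7677 CPM for mt-Co1. Their signs thus rest on few reads, and the median of 0.21 is the value of mt-Co2 (SE 0.30). With the block, 2 of the 13 is close to the 12.9% of all genes called higher. Chchd3, Immt and Samm50 were above 0 as well, and the part of these lists in their values was not tested.

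**Figure D4:**
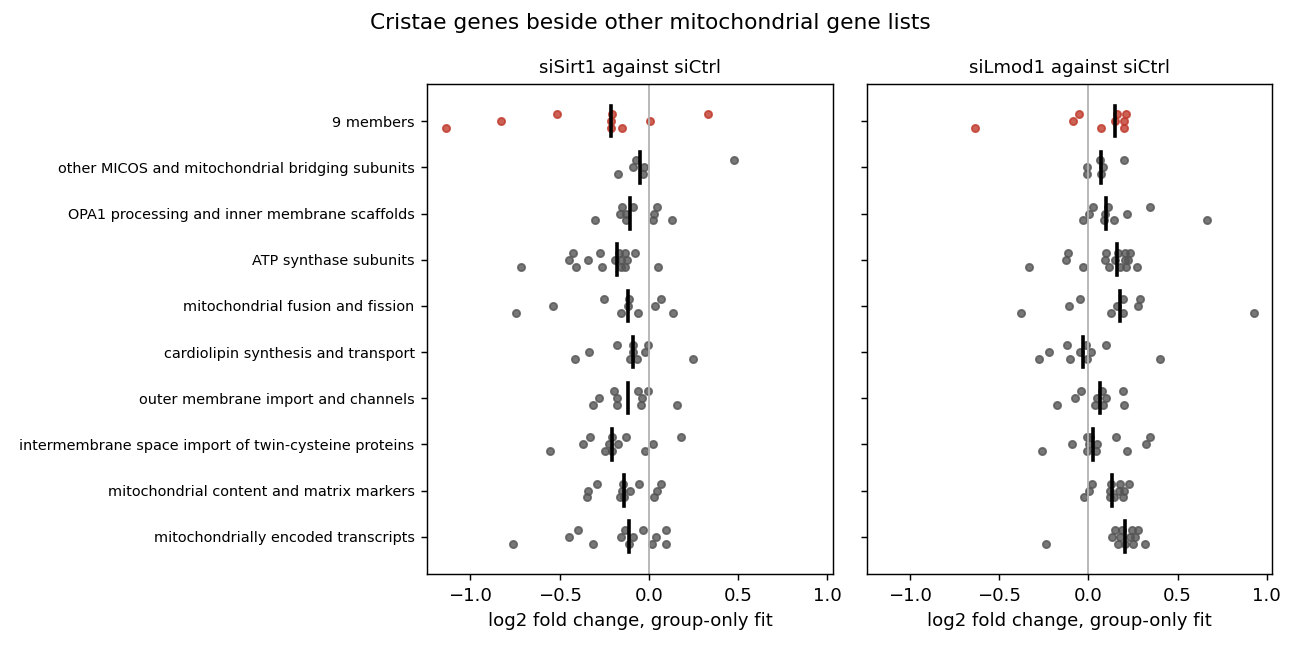
Log2 fold change from the fit with the group only for the 9 genes and for the genes of 9 other mitochondrial lists, in siSirt1 against siCtrl (left) and siLmod1 against siCtrl (right), with 1 point per gene and a bar for each list's median. The medians of the 9 genes, -0.21 and 0.15, lie on the same side of 0 as those of most lists, while Chchd3 at -1.14 lies below every list gene in siSirt1.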

How the data were processed

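RNA-seq libraries of 15 samples were read as the authors' deposited raw counts per Ensembl gene and as the TPM values the authors deposited, which scale by length within a library. Each library appears in 2 tables of a kind, with the same values in both. The submitters' processing notes name DESeq2 and mm10, with aligner, counter and annotation not given in the sources used here. The deposited normalized counts were not used. Gene IDs without a symbol held 0.032% of counts. Positions and exon lengths come from GENCODE M21 on mm10, copies of transcripts were searched with blastn 2.17.0, and promoters are RefSeq's.

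Counts were handled in Python 3.11.15 (numpy 2.4.6, pandas 2.3.3, scipy 1.17.1, matplotlib 3.10.9) and R 4.3.3. Within each comparison, genes were filtered with filterByExpr, scaled by TMM and tested with edgeR 4.0.16 (quasi-likelihood F test, Benjamini-Hochberg adjustment over all genes tested, called below 0.05), with the group alone in the model. The SE is the size of the log2 fold change divided by the square root of F. The fit was tested on simulated counts. Alternatives were the line as a block, other scalings, DESeq2 1.42.0, no filter, all 15 libraries in 1 fit and leaving out each library or line.

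The line numbers come from the sample titles, and the series text gives 5 different lines. Over 15716 genes, libraries of the same line correlated at 0.278 to 0.889 after group means were removed (median 0.713, 15 pairs), and libraries of different lines at -0.517 to 0.269 (median -0.132, 60 pairs). The 0.269 was that of the siSirt1 library of line 1 with the siCtrl library of line 3, beside 0.278 with siCtrl of line 1. The lines were therefore taken to pair the libraries, although the pairing of this siSirt1 library is uncertain. The blocked siSirt1 fits rest on it in part.

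The floor of 3 counts lay at 0.0893 to 0.143 CPM and covers counting error only. The genes and lists were chosen with earlier results of these data known. Named were the 9 genes, Lmod1 and Sirt1, up to 3 genes per list with the smallest p among those called in siLmod1 against siCtrl (with the block where none was called without it), and the 5 genes of at least 5 CPM most like Chchd3, leaving out predicted gene models. One of the genes so named is not reported here. Likeness used log2 CPM with each line's mean removed.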

Additional observations from a re-analysis of the deposited data

How the results depend on the processing

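With the replicate block, that is the line in the model, the members called numbered 2 in siSirt1 against siCtrl (1 without it), 4 in siLmod1 against siCtrl (0 without) and 5 in siSirt1 against siLmod1 (2 without), and the genes called 1054, 4430 and 2379 (19, 17 and 229 without). DESeq2 gave 2, 1 and 2 members among 294, 261 and 922 genes. All 15 libraries in 1 fit gave 2, 0 and 2 members among 150, 38 and 554 genes, and with the block 3, 2 and 7 members among 2530, 1427 and 4210 genes. Without the filter 1, 0 and 1 members and 7, 6 and 90 genes were called, and with library totals alone 1, 0 and 1 members and 7, 13 and 196 genes. Size factors in place of TMM gave 1, 0 and 2 members among 19, 16 and 228 genes. Leaving out each library gave 0 to 1, 0 to 0 and 1 to 1 members and 3 to 13, 3 to 10 and 54 to 247 genes, and leaving out each line with the block gave 2 to 2, 2 to 5 and 2 to 5 members and 332, 398, 411, 525 and 580 genes, then 2833, 3314, 3534, 3758 and 4264 genes, then 946, 1042, 1395, 1662 and 1771 genes, sorted by size and not by line.

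The sign of 2 fold changes of the 9 genes, both near 0, changed. Mtx2 in siLmod1 against siCtrl was at 0.0006 with library totals alone and at -0.18 to 0.0216 on leaving out each library, with 0.0074 without the siLmod1 library of line 2. Opa1 in siSirt1 against siCtrl was at -0.0008 with the block, -0.0212 without the filter and -0.0026 in the blocked fit of all 15 libraries. On leaving out single libraries Opa1 ranged from -0.0409 to 0.0769 (also -0.0185, -0.0146, -0.0078 and -0.0366), and on leaving out lines with the block as low as -0.0294 (also -0.025, -0.0029 and -0.015). The other fold changes of the 9 genes kept their sign under every alternative run. The mitochondrial lists were fitted only with and without the block. The cause of the changed counts was not tested. Depth limits little here, as the lowest count of a member was 323.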

Other observations

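Beyond the genes already described, a few genes of the mitochondrial lists stood out after Sirt1 knockdown, and they are named here after their values were seen. Their values against siCtrl belong to the comparison that chose the 9 genes and are a description. The values against siLmod1 use the same siSirt1 libraries in which these genes stood out. Their adjusted p-values are thus also a description and not a test. Mief2, which encodes an outer membrane adaptor for the fission GTPase, was at 43.5 ± 5.42 CPM in siSirt1, 85.0 ± 13.2 CPM in siLmod1 and 67.6 ± 8.12 CPM in siCtrl (SD, n = 5 each). It was the one gene of the 99 that edgeR called in siSirt1 against siLmod1 with the group alone, beside 1.53% of all genes tested. The count of 1 in 99 is thus no more than the background. With the block 2 of the 99 were called higher and 19 lower, where 15.9% of all genes were called (8.43% lower). The value of Mief2 with the group alone was -1.03 ± 0.14 on the log2 scale (SE; edgeR, Benjamini-Hochberg adjusted p = 0.00982). Its paralogue Mief1 was at 45.1 ± 3.20, 30.3 ± 4.20 and 38.0 ± 3.97 CPM in siSirt1, siLmod1 and siCtrl. Mief1 was called higher in siSirt1 than in siLmod1 with the block only, at 0.51 ± 0.09 (edgeR adjusted p = 0.0122; 0.066 without).

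Mtx3, the third metaxin gene, was at 26.5 ± 5.58 CPM in siSirt1, 18.0 ± 3.48 CPM in siLmod1 and 17.5 ± 1.81 CPM in siCtrl (SD, n = 5 each), while its relative Mtx2 was lowest in siSirt1. The log2 fold change of Mtx3 in siSirt1 against siLmod1 was 0.47 ± 0.12 with the block (SE; edgeR adjusted p = 0.031; 0.227 without). Atp5f1, a stalk subunit of ATP synthase, was at 233 ± 84.1 CPM in siSirt1, 434 ± 54.4 CPM in siLmod1 and 359 ± 42.4 CPM in siCtrl, and at -1.04 ± 0.19 in siSirt1 against siLmod1 with the block (edgeR adjusted p = 0.0114; 0.101 without). Aifm1, which takes part in the import of twin-cysteine proteins, was at 61.5 ± 17.8, 87.4 ± 10.3 and 84.0 ± 18.9 CPM in these groups, and at -0.62 ± 0.14 in siSirt1 against siLmod1 with the block (0.0221; 0.218 without). With the group alone, 79 of the 99 list genes were below 0 in siSirt1 against siCtrl, where the median over all genes tested was 0.02.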
